A study of Mus musculus with 24 samples.

Results

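The genes described here encode 9 proteins that build, remodel and clear plasma lipoproteins: the transfer protein gene Mttp, the plasma enzyme and transfer protein genes Lcat and Pltp, the lipase genes Lipc and Lipg, the lipase inhibitor genes Angptl4 and Angptl8, and the receptor genes Scarb1 and Lrp1. They were taken by name, through the GENCODE annotation, from the 53677 gene identifiers of the count table, and all 9 were found and passed the filter on low counts, as did 14533 genes in all. RNA had been sequenced from liver of 24 mice, each giving 1 library, and the mice belonged to 2 inbred strains. The 129S1/SvImJ strain was represented by 6 high-fat-fed and 5 chow-fed mice, and the C57BL/6J strain by 7 high-fat-fed and 6 chow-fed mice. The 24 mouse IDs in the labels are distinct but share 8 numbers, 2 in each group with 2 to 4 mice each. What such a number marks is not given in the labels, and the tests took the mice as independent. No transgene or deletion is named for any group, and age, sex, diet composition and feeding time are not given in the labels.

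Lipoproteins leave the liver as very low density lipoprotein (VLDL), after the microsomal triglyceride transfer protein has loaded lipid onto apolipoprotein B. In the blood vessels, lipases release fatty acids from their triglyceride and phospholipid, and angiopoietin-like proteins restrain lipoprotein lipase. High density lipoprotein (HDL) is reshaped by lecithin-cholesterol acyltransferase, phospholipid transfer protein and the hepatic and endothelial lipases, and the liver takes up HDL cholesterol through the scavenger receptor SR-BI and lipoprotein remnants partly through LRP1.

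Levels are given as CPM, a gene's count scaled to a common library size with edgeR's trimmed mean of M-values. A gene was called where the adjusted p of edgeR's quasi-likelihood test, Benjamini-Hochberg over all 14533 genes, was under 0.05. Fold changes are high-fat diet over chow, or 129S1/SvImJ over C57BL/6J, on the log2 scale. Library totals ran from 6707013 to 13124881 counts, and the chow libraries of 129S1/SvImJ (at most 9184270) were all shallower than those of C57BL/6J (at least 10162138). The hepatocyte gene Alb averaged between 45350 and 66690 CPM in the 4 groups, and 8 of 8 hepatocyte markers had counts in every group. The noncoding 7SK RNA ranged from 2097 to 7258 CPM within and across groups. A split at 2983 CPM, the widest gap on the log scale that left at least 5 libraries on each side, was drawn from the data and put 10 libraries at a low and 14 at a high level, with both levels in every group. The fat-cell genes Adipoq, Lep and Plin1 summed to more than 1 CPM in chow replicate 1 of 129S1/SvImJ (1.36 CPM) and high-fat replicate 5 of C57BL/6J (6.07 CPM).

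Of 45 tests, 9 genes in 5 comparisons, 12 were called. Scarb1 rose and Lipg and Angptl8 fell on high-fat diet in 129S1/SvImJ, while no member was called for diet in C57BL/6J. Between strains, Scarb1 and Lipc were higher and Pltp was lower in 129S1/SvImJ on both diets. On high-fat diet, Lcat was also higher and Lipg and Angptl8 were lower in 129S1/SvImJ. Mttp, Angptl4 and Lrp1 were called in no comparison.

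Calls among the members were set against those among all genes. For diet in 129S1/SvImJ, 1 of 9 members was higher and 2 were lower, where 5.41% and 5.01% of all genes tested were called in these directions. The ranges of 3 members did not overlap, against 7.73% of all genes. For diet in C57BL/6J, 0 of 9 were called with edgeR, DESeq2 or limma-voom, 2 (Pltp and Scarb1) had an unadjusted p under 0.05 with edgeR, and no member had ranges apart. Over all genes 7.66% were called higher, 7.20% were called lower, 28.9% had an unadjusted p under 0.05 with edgeR and 3.89% had ranges apart. For strain on high-fat diet, 3 members were higher and 3 lower, against 17.9% and 19.1% of all genes, and 4 had ranges apart, against 15.1%. For strain on chow, 2 were higher and 1 lower, against 12.6% and 12.5%, and 2 had ranges apart, against 15.1%. The median log2 fold change of the 9 members was -0.07 for diet in 129S1/SvImJ, -0.16 for diet in C57BL/6J, 0.15 for strain on high-fat diet and 0.01 for strain on chow, where those of all genes lay between -0.00395 and 0.0104.

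**Figure D1:**
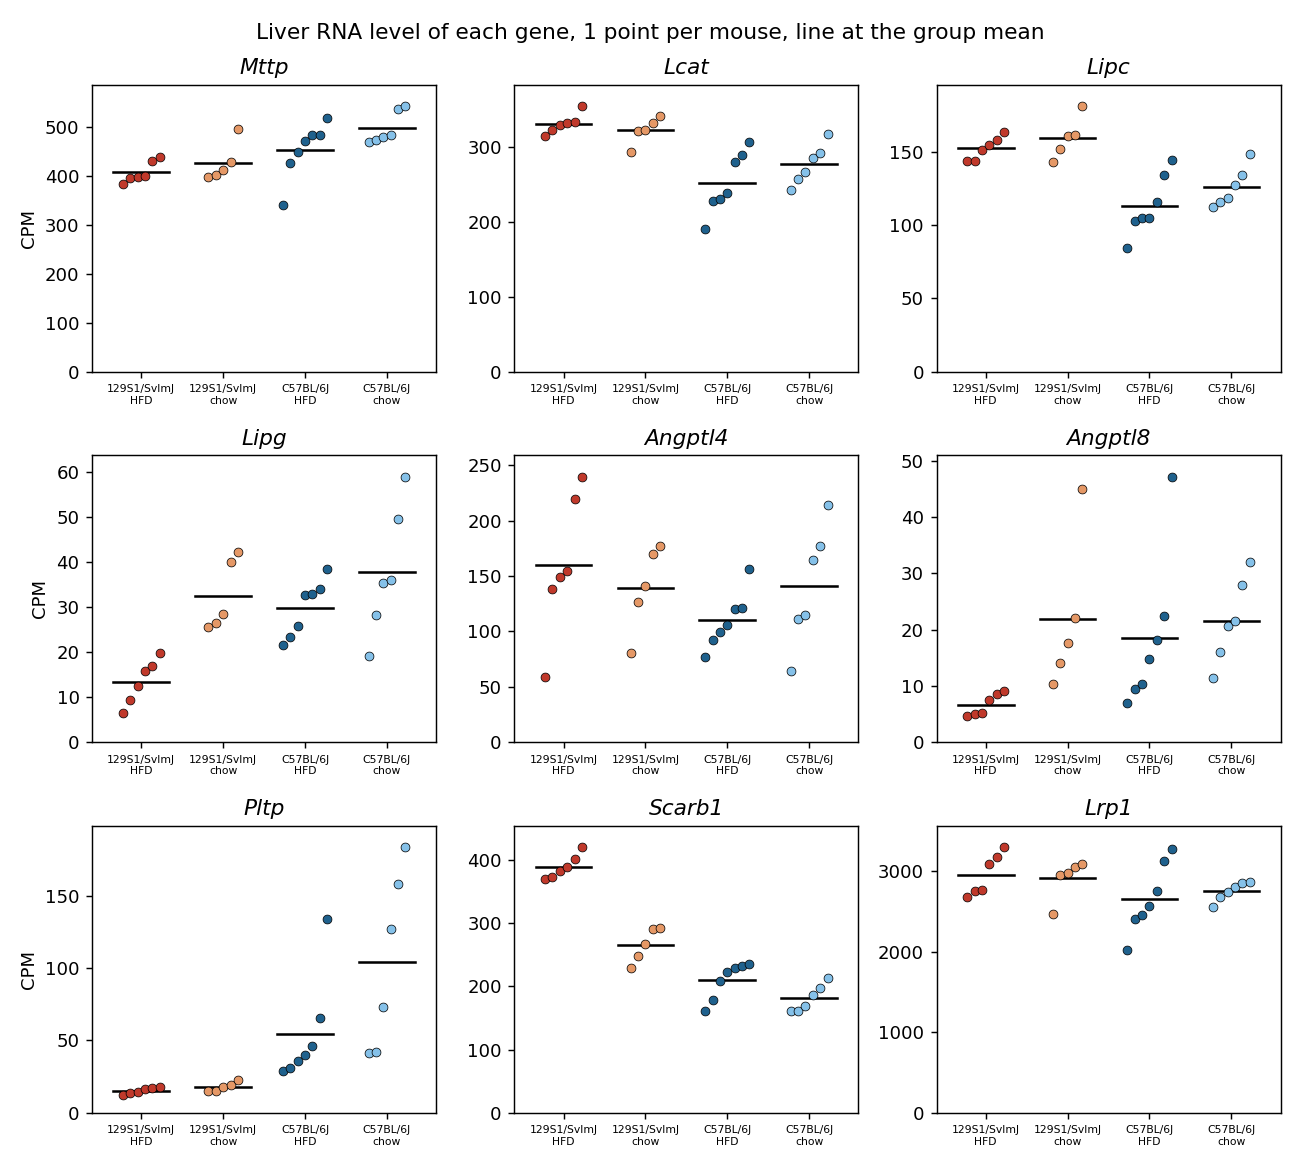
CPM of the 9 genes in the 24 livers, with 1 point per mouse and a line at each group mean; each vertical axis starts at 0. Scarb1 stood at 369.7 to 420.6 CPM in 129S1/SvImJ on high-fat diet, above every other liver, and Pltp at 12.3 to 22.7 CPM in the 129S1/SvImJ livers, below every C57BL/6J liver.

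Per kilobase of annotated exon, the group means averaged over the 4 groups were highest for Lcat (219.8 CPM per kb), followed by Lrp1 (159), Mttp (72.0), Lipc (64.1), Angptl4 (38.9), Scarb1 (30.8), Angptl8 (19.8), Pltp (18.7) and Lipg (6.02). The members also differed in how far mice of 1 group lay apart. EdgeR's biological coefficient of variation was 10.7% to 12.3% for Mttp, Lcat, Lipc, Scarb1 and Lrp1, against 30.2% for Lipg, 34.9% for Angptl4, 44.7% for Pltp and 48.4% for Angptl8. The intervals below are correspondingly wider for the last 4 genes. In bulk liver RNA, fewer cells of a type and less RNA per cell cannot be told apart.

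RefSeq promoter entries (build GRCm38.p6) were at hand for 6 of the 9 genes, not for Lipg, Angptl4 or Scarb1. The 250 bases before the start are shown for the 4 of these genes that were called, since they set the sequence beside the direction of the change: Lcat and Lipc were higher, and Pltp and Angptl8 lower, in 129S1/SvImJ on high-fat diet. They are reference sequence and say nothing of the 129S1/SvImJ alleles. Capitals mark matches to any of 6 short motifs, searched on both strands.
Lcat, chr8:105943403-105943652, minus strand: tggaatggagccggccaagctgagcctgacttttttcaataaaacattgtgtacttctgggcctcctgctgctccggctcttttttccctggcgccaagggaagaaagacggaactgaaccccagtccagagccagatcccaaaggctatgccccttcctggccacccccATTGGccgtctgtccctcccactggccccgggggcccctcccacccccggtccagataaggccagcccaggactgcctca
Lipc, chr9:70952222-70952471, minus strand: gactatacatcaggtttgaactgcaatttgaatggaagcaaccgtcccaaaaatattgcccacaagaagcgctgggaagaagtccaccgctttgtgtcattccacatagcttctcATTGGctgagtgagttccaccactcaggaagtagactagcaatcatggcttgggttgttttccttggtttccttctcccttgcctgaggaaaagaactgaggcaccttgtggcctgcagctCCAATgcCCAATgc
Pltp, chr2:164857709-164857958, minus strand: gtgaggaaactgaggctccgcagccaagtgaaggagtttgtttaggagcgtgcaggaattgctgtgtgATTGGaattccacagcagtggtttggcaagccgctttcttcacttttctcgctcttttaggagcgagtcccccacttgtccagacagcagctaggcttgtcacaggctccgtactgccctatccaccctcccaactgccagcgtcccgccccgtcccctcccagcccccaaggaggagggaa
Angptl8, chr9:21835260-21835509, plus strand: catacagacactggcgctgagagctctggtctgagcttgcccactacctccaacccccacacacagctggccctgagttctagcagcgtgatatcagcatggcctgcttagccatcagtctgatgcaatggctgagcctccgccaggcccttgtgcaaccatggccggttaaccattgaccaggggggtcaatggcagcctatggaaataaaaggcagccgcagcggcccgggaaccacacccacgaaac
The motifs were CTTTGAT (the TCF/LEF core, in 3.21% of the 32851 RefSeq windows of this length), TCACNCCAC (SREBP, 1.05%), TGTTTAC (FOXO, 3.17%), AGGTCA (a nuclear receptor half-site, 14.0%), CACGTG (an E-box, 6.02%) and CCAAT (33.8%). Only CCAAT was matched in these 4 windows: once in Lcat, 80 to 76 bases before the start on the opposite strand, once in Pltp, 182 to 178 bases before it on the opposite strand, and 3 times in Lipc. No letters of the Angptl8 window matched a motif. The second annotated start of Lipc, with its window at chr9:70934809-70935058, held an AGGTCA match on each strand.

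Mttp (ENSMUSG00000028158.14, mm10 chromosome 3, 138089854 to 138144968, minus strand), whose product assembles VLDL, was among the most abundant members. It averaged 408 ± 22.0 CPM in 129S1/SvImJ on high-fat diet and 427 ± 40.2 CPM on chow (SD, n = 6 and 5), and 453.5 ± 57.1 CPM in C57BL/6J on high-fat diet and 498 ± 32.9 CPM on chow (SD, n = 7 and 6). The groups overlapped in all 4 pairs compared. The strain difference on chow was -0.22 (95% interval -0.39 to -0.05) and narrowly missed the threshold (edgeR adjusted p = 0.0513). It was called with DESeq2 (adjusted p = 0.0357), and in 5 of the 24 edgeR fits that left out 1 library, with adjusted p of 0.0159 to 0.126 over all 24 fits. The strain difference on high-fat diet was -0.15 and was not called (adjusted p = 0.12). It was called with upper-quartile scaling (0.0491), with library totals (0.0395) and without high-fat replicate 6 of C57BL/6J (0.0112). Diet differences were bounded by intervals of -0.24 to 0.10 in 129S1/SvImJ and -0.29 to 0.02 in C57BL/6J. Mttp shares 457 bases of exon with Trmt10a on the opposite strand, and whether the counting used strand is not given in the sources used here. Trmt10a was low, at 4.33 to 9.97 CPM over the 24 livers.

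Lcat (ENSMUSG00000035237.7, chromosome 8, 105939551 to 105943382, minus strand) encodes the plasma enzyme that esterifies HDL cholesterol. The 6 high-fat-fed 129S1/SvImJ livers held 314 to 354 CPM (median 329.9) and the 7 high-fat-fed C57BL/6J livers 190.5 to 307 CPM (median 238). No liver of the 2 groups overlapped, and Lcat was higher in 129S1/SvImJ by 0.39 ± 0.08 (SE), edgeR adjusted p = 0.000605. On chow the 5 livers of 129S1/SvImJ held 341, 332, 322, 293 and 320.3 CPM and those of C57BL/6J 242.5 to 317 CPM (median 275). The strain difference on chow was 0.22 ± 0.09 and was not called (adjusted p = 0.0826). In neither strain did the diets differ beyond the spread, with intervals of -0.15 to 0.23 in 129S1/SvImJ and -0.31 to 0.04 in C57BL/6J.

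Pltp (ENSMUSG00000017754.13, chromosome 2, 164839518 to 164857711, minus strand), whose product moves phospholipid between lipoproteins, showed the widest strain difference of the 9 genes on either diet. On high-fat diet it was at 12.3 to 17.5 CPM in 129S1/SvImJ (median 15.3) and at 28.9 to 133.6 CPM in C57BL/6J (median 39.5). On chow the livers of 129S1/SvImJ read 15.2, 19.4, 22.7, 15.3 and 17.6 CPM and those of C57BL/6J 41.4 to 183 CPM. The strains did not overlap on either diet, with log2 fold changes of -1.84 ± 0.40 on high-fat diet (adjusted p = 0.00105) and -2.53 ± 0.44 on chow (adjusted p = 0.000197, edgeR). The mice of C57BL/6J also lay far apart: the highest was 4.62 times the lowest on high-fat diet and 4.43 times on chow, against 1.42 and 1.49 times in 129S1/SvImJ.

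Within C57BL/6J, Pltp averaged 54.3 ± 37.1 CPM on high-fat diet and 104 ± 60.9 CPM on chow (SD, n = 7 and 6), a difference of -0.94 ± 0.36 that was not called (adjusted p = 0.0871). High-fat replicate 5, the C57BL/6J library marked for its sum of Adipoq, Lep and Plin1, held the 133.6 CPM. Over all 8 fat-cell markers it summed to 151.9 CPM, inside the range of its group (91.5 to 369.4 CPM). Its sums of cholangiocyte (151.7 CPM) and stellate cell markers (1037 CPM) were the highest of the group. Without both libraries with such transcripts Pltp was called lower on high-fat diet (-1.33, adjusted p = 0.0105). Leaving out chow replicate 3 or 6, both low for Pltp, also gave a call (adjusted p = 0.0443 and 0.0464). Marker levels also differed between the diets in C57BL/6J: 5 of 8 hepatocyte markers were lower on high-fat diet, with sums of 61440 to 81820 CPM against 88970 to 96930 CPM on chow, and Cfd, Fabp4, Lipe and Cidea, the tested genes of the fat-cell list, were higher. Their part in the diet differences was not tested. In 129S1/SvImJ the diet difference of Pltp was -0.24, with an interval of -1.17 to 0.69.

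Levels of resident macrophage markers also differed between strains. The summed level of 9 Kupffer cell markers, all with counts in every group, was 123 to 285 CPM in 129S1/SvImJ and 224 to 529 CPM in C57BL/6J on high-fat diet. On chow it was 80.4 to 225 CPM in 129S1/SvImJ and 240.5 to 397 CPM in C57BL/6J. Of the 9 markers, 5 on high-fat diet and 8 on chow were lower in 129S1/SvImJ. For diet in C57BL/6J, 0 of the 9 were called, with a median log2 fold change of -0.0088. Of 11 markers of recruited monocytes and lipid-associated macrophages, summed at 65.6 to 147 CPM in 129S1/SvImJ and 129 to 342 CPM in C57BL/6J on high-fat diet, 6 passed the filter and 2 were lower. All 5 cholangiocyte markers had counts in every group, and 3 were lower in 129S1/SvImJ on high-fat diet and 1 on chow. Of 8 genes listed as fat-cell markers, Cfd, Fabp4, Lipe and Cidea were tested, and all 4 were lower in 129S1/SvImJ on high-fat diet. On that diet Cfd averaged 0.081 CPM in 129S1/SvImJ and 147 CPM in C57BL/6J, the largest mean of the list there. The defining fat-cell genes Adipoq, Lep, Plin1 and Retn averaged at most 0.469 CPM in every group. The median log2 fold change of the 9 Kupffer cell markers between strains was -0.69 on high-fat diet and -1.13 on chow. The part of these cell types in the strain difference of Pltp was not tested.

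**Figure D2:**
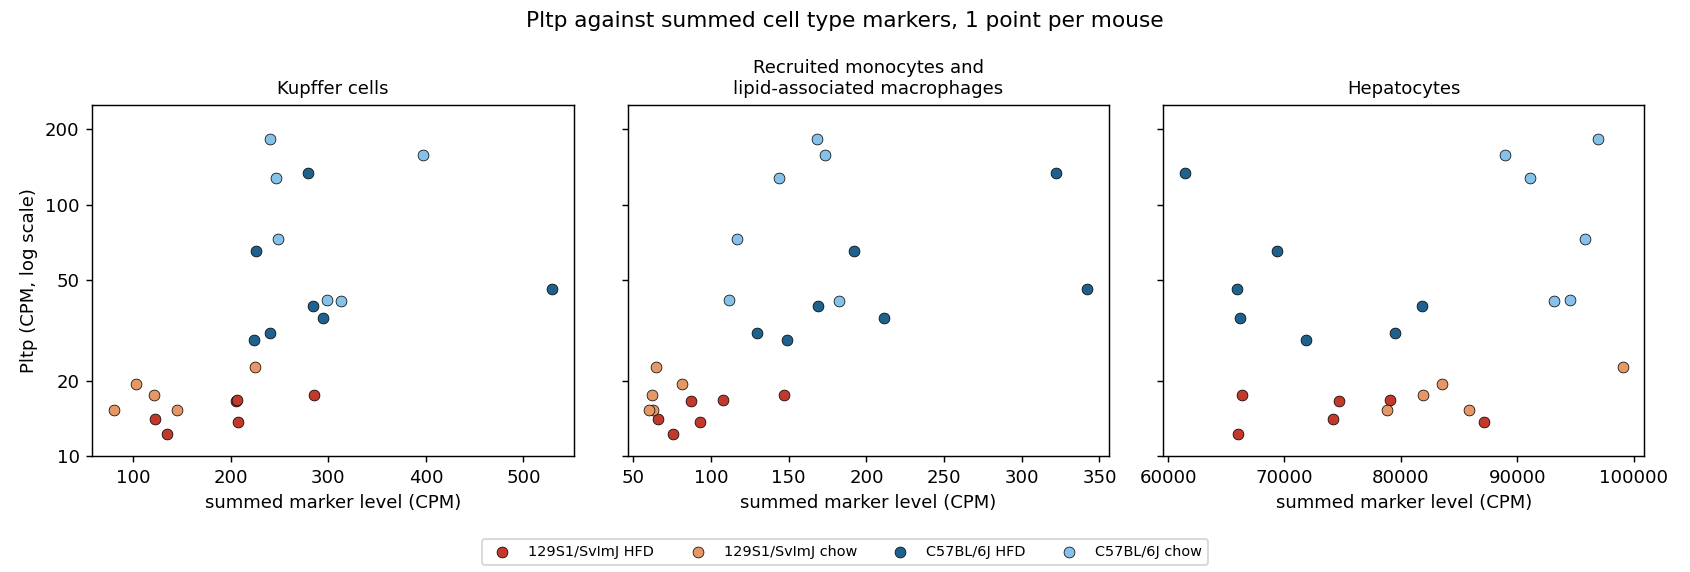
Pltp (CPM, log axis) against the summed CPM of the markers of 3 cell types, with 1 point per mouse. The 129S1/SvImJ livers lie at 12.3 to 22.7 CPM of Pltp and the C57BL/6J livers at 28.9 to 183 CPM. The Kupffer marker sums of 129S1/SvImJ and C57BL/6J are 123 to 285 and 224 to 529 CPM on high-fat diet. On chow they are 80.4 to 225 and 240.5 to 397 CPM.

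Pltp shares 495 bases of exon with Ctsa on the opposite strand. On high-fat diet Ctsa was at 124 to 133 CPM in 129S1/SvImJ and 111 to 127 CPM in C57BL/6J. On chow it was at 155 to 180 CPM in 129S1/SvImJ and 118 to 147 CPM in C57BL/6J. In 129S1/SvImJ it was above Pltp in every liver. The counter's strand setting is not given in the sources used here. Whether reads of Ctsa were counted for Pltp was not tested.

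Lipc (ENSMUSG00000032207.10, chromosome 9, 70798128 to 70952226, minus strand) encodes hepatic lipase, which acts on HDL and remnant particles. With high-fat feeding it was at 143.5 to 164 CPM in 129S1/SvImJ (median 153) and at 84.6 to 145 CPM in C57BL/6J (median 105). On chow the livers of 129S1/SvImJ read 161, 161, 181, 152 and 143 CPM and those of C57BL/6J 112 to 149 CPM (median 123). The ranges of the strains overlapped slightly on both diets, by 1 liver of C57BL/6J in each case. Lipc was higher in 129S1/SvImJ by 0.43 ± 0.09 on high-fat diet (edgeR adjusted p = 0.000602) and by 0.34 ± 0.10 on chow (adjusted p = 0.0127). Diet intervals were -0.27 to 0.14 in 129S1/SvImJ and -0.35 to 0.03 in C57BL/6J. Between strains, 3 of the 8 hepatocyte markers were called higher and 0 lower in 129S1/SvImJ on high-fat diet, with a median log2 fold change of 0.241. On chow 2 of the 8 were higher and 0 lower, with a median of -0.0077. The part of hepatocytes in the strain differences of Lcat, Lipc and Scarb1 was not tested.

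Lipg (ENSMUSG00000053846.4, chromosome 18, 74939322 to 74961263, minus strand) encodes endothelial lipase, a phospholipase of HDL. In 129S1/SvImJ it was at 6.47 to 19.7 CPM on high-fat diet (median 14.1), against 26.5, 39.99, 42.2, 25.5 and 28.4 CPM on chow. In C57BL/6J it was at 21.5 to 38.4 CPM on high-fat diet (median 32.7) and 19.2 to 58.9 CPM on chow (median 35.7). The 6 livers of 129S1/SvImJ on high-fat diet were thus below all livers of the chow group of that strain and below all of C57BL/6J on high-fat diet. Lipg fell on high-fat diet in 129S1/SvImJ by 1.29 ± 0.28 (edgeR, log2 fold change -1.29, adjusted p = 0.00427) and was lower than in C57BL/6J on that diet (-1.16 ± 0.26, adjusted p = 0.00116).

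In C57BL/6J the diet difference of Lipg was -0.35, with an interval of -0.84 to 0.15. The strain difference on chow was -0.22, with an interval of -0.77 to 0.33. Of 8 markers of sinusoidal endothelial cells none was called for diet in 129S1/SvImJ with edgeR. Their summed level in that strain was 511 to 584 CPM on high-fat diet and 407 to 562 CPM on chow. Their median log2 fold change was 0.05. For strain on high-fat diet 2 of the 8 were higher and 3 lower in 129S1/SvImJ, with a median of 0.03. The part of these cells in the differences of Lipg was not tested. Both calls of Lipg stood in each of the 24 fits without 1 library, with adjusted p of at most 0.0165 for diet and 0.00405 for strain.

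Angptl4 (ENSMUSG00000002289.15, chromosome 17, 33773750 to 33781830, minus strand), a fasting-responsive inhibitor of lipoprotein lipase, was called in no comparison. It averaged 160.1 ± 64.6 CPM in 129S1/SvImJ on high-fat diet and 139 ± 38.6 CPM on chow (SD, n = 6 and 5), and 110.4 ± 25.8 CPM in C57BL/6J on high-fat diet and 141 ± 53.9 CPM on chow (SD, n = 7 and 6). High-fat replicate 4 of 129S1/SvImJ was the lowest of all 24 livers, at 58.7 CPM. Without it the strain difference on high-fat diet, 0.53 with an interval of -0.05 to 1.12, was called at 0.71 (adjusted p = 0.0325).

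Angptl8 (ENSMUSG00000047822.8, chromosome 9, 21835510 to 21837347, plus strand), an inhibitor of lipoprotein lipase whose expression is known to rise with feeding, was the member with the lowest CPM. In 129S1/SvImJ it was at 4.68 to 9.12 CPM on high-fat diet (median 6.31), against 45.01, 17.6, 22.0, 14.1 and 10.4 CPM on chow. In C57BL/6J it was at 6.88 to 47.2 CPM on high-fat diet (median 14.7) and 11.4 to 31.9 CPM on chow (median 21.1). The diet groups of 129S1/SvImJ did not overlap, with the lowest chow liver just above the highest high-fat liver. Angptl8 fell by 1.68 ± 0.46 in 129S1/SvImJ (log2 fold change -1.68, edgeR adjusted p = 0.023), and on high-fat diet it was lower than in C57BL/6J (-1.44 ± 0.43, adjusted p = 0.0116), with ranges that overlapped.

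The diet call of Angptl8 rested on single livers. It was lost without chow replicate 1, the liver at 45.01 CPM (-1.24, adjusted p = 0.113), and without high-fat replicate 5 (-1.61, adjusted p = 0.052). It was also lost with limma-voom (adjusted p = 0.0679) and with no filter on low counts (0.0512). Chow replicate 1 is the 129S1/SvImJ library with fat-cell transcripts, and without both such libraries adjusted p was 0.104. The strain call on high-fat diet held in all 24 fits without 1 library (adjusted p at most 0.0385) and was lost with limma-voom (0.0596). In C57BL/6J the diet difference was -0.22, with an interval of -1.04 to 0.59. Angptl8 lies inside the Dock6 gene on the other strand, with no exon bases shared.

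Scarb1 (ENSMUSG00000037936.15, chromosome 5, 125277087 to 125341094, minus strand) encodes SR-BI, the receptor for selective uptake of HDL cholesterol. In 129S1/SvImJ it was at 369.7 to 420.6 CPM on high-fat diet (median 386), against 292, 291, 268, 229.5 and 248 CPM on chow. In C57BL/6J it was at 161 to 236 CPM on high-fat diet (median 223) and 161 to 213 CPM on chow (median 177). Every 129S1/SvImJ liver on high-fat diet exceeded every other liver, and on chow the strains did not overlap either. Scarb1 rose by 0.55 ± 0.09 on high-fat diet in 129S1/SvImJ, a 1.47-fold difference (edgeR adjusted p = 0.00036). It was higher in 129S1/SvImJ than in C57BL/6J by 0.89 ± 0.09 on high-fat diet (adjusted p = 6.42e-09) and by 0.55 ± 0.09 on chow (adjusted p = 7.03e-05).

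In C57BL/6J, Scarb1 averaged 209.7 ± 29.1 CPM on high-fat diet and 181 ± 21.4 CPM on chow (SD, n = 7 and 6), a difference of 0.21 ± 0.09 that was not called (adjusted p = 0.105). It was called without both libraries with fat-cell transcripts (0.27, adjusted p = 0.0226) and with library totals in place of scaled sizes. High-fat replicate 5 of C57BL/6J was the lowest of its group for Scarb1 (161 CPM), Lcat (190.5 CPM), Lipc (84.6 CPM), Lrp1 (2024 CPM) and Angptl4 (76.6 CPM). It also had the lowest sum of the 8 hepatocyte markers in its group, 61440 CPM against up to 81820 CPM. The strain differences of Lcat, Lipc and Scarb1 on high-fat diet were 0.33, 0.37 and 0.84 without both libraries with fat-cell transcripts, and all 3 were still called, the highest adjusted p being 0.00138.

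Lrp1 (ENSMUSG00000040249.15, chromosome 10, 127538161 to 127621148, minus strand), a large endocytic receptor for remnants and many other ligands, was the member with the highest CPM. It averaged 2960 ± 260 CPM in 129S1/SvImJ on high-fat diet and 2911 ± 252 CPM on chow (SD, n = 6 and 5), and 2660 ± 433 CPM in C57BL/6J on high-fat diet and 2753 ± 118 CPM on chow (SD, n = 7 and 6). No comparison called it, and the intervals were narrow: -0.18 to 0.23 for diet in 129S1/SvImJ, -0.23 to 0.14 for diet in C57BL/6J, -0.03 to 0.34 for strain on high-fat diet and -0.12 to 0.28 for strain on chow. Over the 9 genes, neighbouring groups in the order of mean level overlapped in range except Scarb1 in 129S1/SvImJ between diets, Pltp between C57BL/6J on high-fat diet and 129S1/SvImJ on chow, and Lipg between C57BL/6J and 129S1/SvImJ on high-fat diet.

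**Figure D3:**
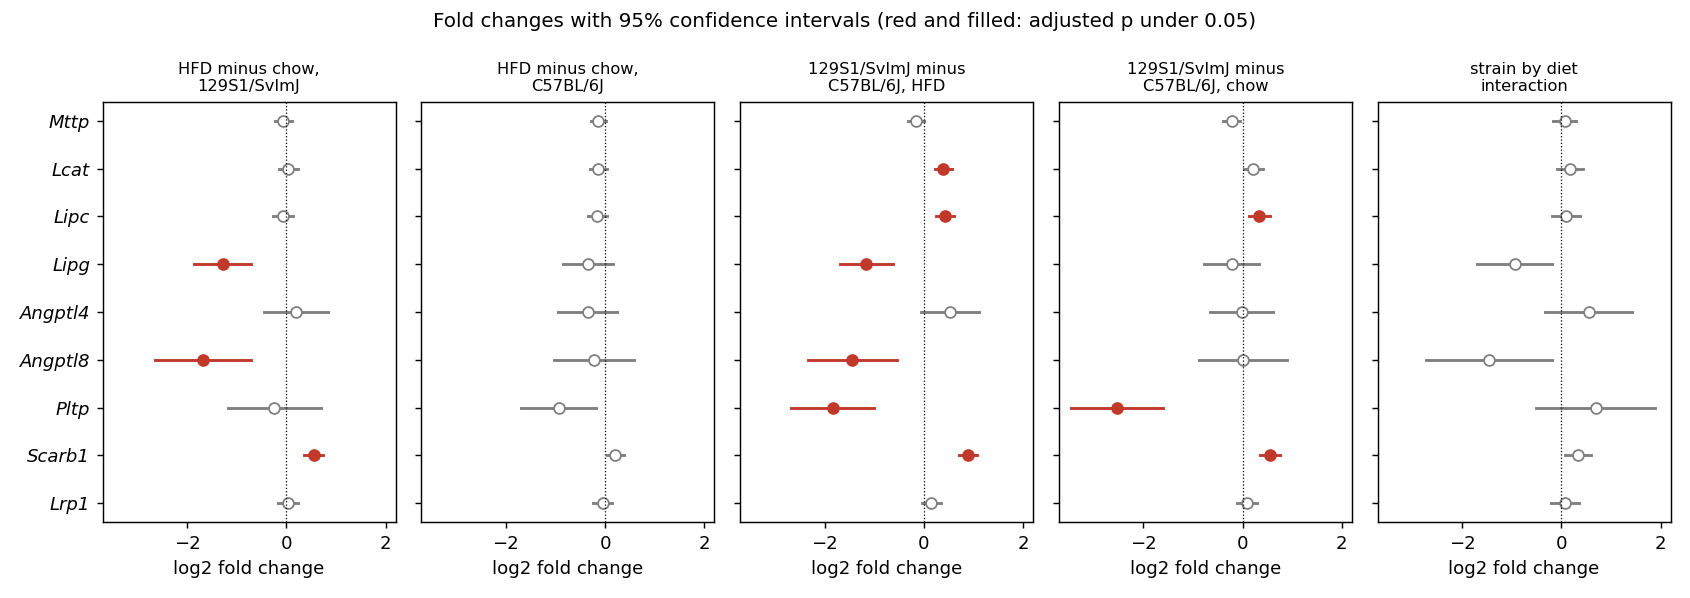
Log2 fold changes of the 9 genes (points) with 95% confidence intervals (lines) in the 5 comparisons; filled red points had an edgeR adjusted p under 0.05. Intervals are narrow for Mttp, Lcat, Lipc, Scarb1 and Lrp1 and wide for Pltp and Angptl8, and no interaction was called.

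Whether diet acted differently in the 2 strains was tested directly as an interaction, which subtracts the log2 diet difference of C57BL/6J from that of 129S1/SvImJ. No member was called with edgeR, DESeq2 or limma-voom, where 0.296% of all genes were called with edgeR. Unadjusted p was under 0.05 with edgeR for 3 members, against 14.3% of all genes. They were the same 3 that were called for diet in 129S1/SvImJ, a difference that the interaction contains. The interaction was -0.94 ± 0.37 for Lipg (edgeR adjusted p = 0.242), -1.46 ± 0.61 for Angptl8 (adjusted p = 0.275) and 0.34 ± 0.13 for Scarb1 (adjusted p = 0.21). So the diet responses of these genes were not shown to differ between strains after adjustment over all genes. The interaction of Scarb1 had an interval of 0.08 to 0.60, and that of Lrp1 an interval of -0.20 to 0.35.

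The called changes were recomputed within each level of 7SK RNA, which leaves 2 to 5 livers per group. Scarb1 between strains on high-fat diet was called at both levels, at 0.92 (adjusted p = 0.00258) within the low and 0.87 (adjusted p = 1.36e-05) within the high level. Between strains on chow it was 0.68 within the low level (adjusted p = 0.00344) and 0.39 within the high level (0.0979), where the call was lost. Its rise with diet in 129S1/SvImJ was 0.51 within the low level (adjusted p = 0.0823) and 0.63 within the high level (0.028). Lipg fell short of the threshold for diet at both, at -0.996 (adjusted p = 0.289) and -1.51 (0.0808), and so did Angptl8, at -1.77 (0.249) and -1.45 (0.336). Between strains on high-fat diet Angptl8 was -0.76 (0.571) and -1.68 (0.0392), and Lipg -1.17 (0.147) and -1.22 (0.0161). Pltp between strains on chow was -2.87 (adjusted p = 0.00238) within the low and -2.10 (0.157) within the high level, and on high-fat diet -1.34 (0.102) and -2.02 (0.0285). Lipc between strains was 0.19 (adjusted p = 0.396) and 0.52 (0.00265) on high-fat diet, and 0.37 (0.0386) and 0.34 (0.203) on chow. Lcat was 0.33 (0.11) and 0.40 (0.013) on high-fat diet. With 7SK level as a term in the fit of all 24 libraries, the numbers of members called were the same as without it, 3, 0, 6, 3 and 0.

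**Figure D4:**
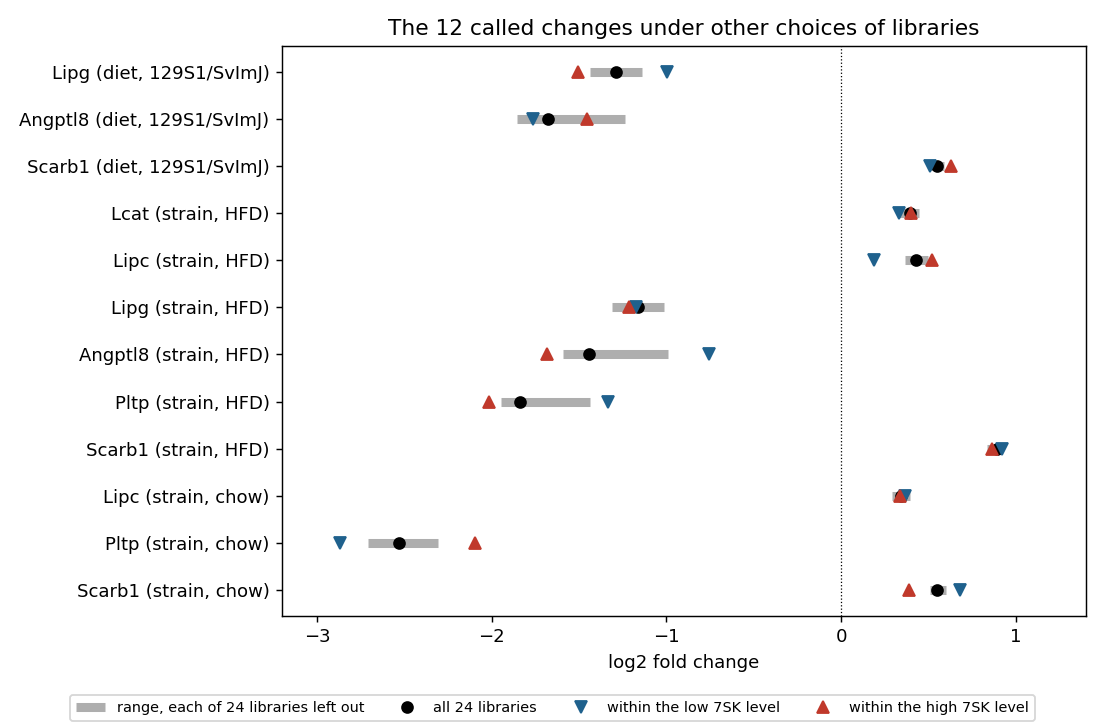
The 12 called log2 fold changes (black points), their range when each of the 24 libraries was left out (grey bars), and their values within the low and high 7SK level (triangles). All values of a change lie on the same side of 0, and the range is widest for Angptl8.

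Over the 24 livers some pairs of members went up and down together and others did not, which is given here as a description, since the livers share strain and diet. Lcat correlated with Lipc (Pearson r = 0.84), Lrp1 (0.79) and Scarb1 (0.75), and inversely with Pltp (-0.77). With the group means taken off, these were 0.62, 0.80, 0.78 and -0.75. Scarb1 and Pltp were at -0.86 over all livers and -0.64 within groups. Lipg and Angptl4 were at 0.28 over all livers and 0.75 within groups. Of the 10163 genes with a mean of at least 5 CPM, those most like each member within groups were Hsd17b4 for Mttp (0.92), Plg for Lcat (0.88), Rdh7 for Lipc (0.82), Plin4 for Lipg (0.80), Ccnt1 for Angptl4 (0.90), Chka for Angptl8 (0.86), Acsl5 for Pltp (0.91), Supt7l for Scarb1 (0.83) and Tfr2 for Lrp1 (0.96). Over all livers they were Osbpl11 (0.82), Mug1 (0.94), Il1rap (0.92), Mef2d (0.84), Ccnt1 (0.88), Chka (0.87), Cyb5r3 (0.90), Acox2 (0.94) and Cpn2 (0.89), in the same order of members.

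The other genes of lipase maturation and control were listed beside the members, and 4 more lists follow. Over all genes 5.41% were called higher and 5.01% lower for diet in 129S1/SvImJ, and 7.66% and 7.20% for diet in C57BL/6J. For strain these shares were 17.9% and 19.1% on high-fat diet, and 12.6% and 12.5% on chow. No list was tested as a set. Of 15, all tested, 3 rose and 1 fell on high-fat diet in 129S1/SvImJ. The lipase gene Lpl rose in that strain to 48.0 ± 18.1 CPM on high-fat diet, against 21.9 ± 4.14 CPM on chow (SD, n = 6 and 5), on the log2 scale 1.13 (edgeR adjusted p = 0.00788). Apoa5, whose protein promotes triglyceride lipolysis, fell to 728 ± 132 CPM on high-fat diet, against 1244 ± 184 CPM on chow (-0.77, adjusted p = 0.000144). In C57BL/6J, Lpl was not called (0.41, adjusted p = 0.261) and Apoa5 fell (-0.34, 0.0435). The convertase gene Pcsk6 rose in both strains, by 0.43 in 129S1/SvImJ and 0.48 in C57BL/6J.

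Between strains, 3 of these 15 genes were higher and 6 lower in 129S1/SvImJ on high-fat diet, and 3 higher and 3 lower on chow. Apoc3, which encodes an inhibitor of lipolysis, was higher in 129S1/SvImJ on both diets (0.56 on high-fat diet, 0.59 on chow). The lysosomal lipase gene Lipa was lower on high-fat diet, at 188 ± 27.2 CPM in 129S1/SvImJ and 335 ± 91.9 CPM in C57BL/6J (SD, n = 6 and 7), edgeR adjusted p = 5.71e-05. Gpihbp1, which anchors lipoprotein lipase to capillaries, had log2 fold changes of -0.24 on high-fat diet and -0.42 on chow and was not called.

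Of 20 lipoprotein receptor and adapter genes, 19 were tested (Lrp8 was not). On high-fat diet 1 rose and 4 fell in 129S1/SvImJ, and 2 rose and 2 fell in C57BL/6J. Between strains 3 were higher and 5 lower in 129S1/SvImJ on high-fat diet, and 4 higher and 3 lower on chow. Sorl1, a sorting receptor, was at 53.0 ± 5.80 CPM in 129S1/SvImJ and 9.38 ± 2.32 CPM in C57BL/6J on high-fat diet (SD, n = 6 and 7), a log2 fold change of 2.501. Vldlr was low but higher in 129S1/SvImJ, at 10.2 ± 3.80 CPM in that strain and 3.47 ± 3.06 CPM in C57BL/6J on high-fat diet (SD, n = 6 and 7), a log2 fold change of 1.54. Pdzk1, whose protein stabilises SR-BI in hepatocytes, was higher in 129S1/SvImJ on chow (0.41, edgeR adjusted p = 0.000612), and fell on high-fat diet in 129S1/SvImJ (-0.29, adjusted p = 0.0257), where Scarb1 rose; this last value was chosen after it was seen.

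Of 10 genes of HDL particles, 3 rose and 1 fell on high-fat diet in 129S1/SvImJ, and 4 rose and 3 fell in C57BL/6J. The cholesterol exporter gene Abcg1 rose by 0.77 in both strains, and Apoa1, the main HDL protein, fell by 0.48 in 129S1/SvImJ (log2 fold change -0.48) and 0.37 in C57BL/6J (-0.37). Apom, an HDL protein that carries sphingosine phosphate, fell in C57BL/6J to 74.7 ± 21.5 CPM on high-fat diet, against 149.9 ± 16.7 CPM on chow (SD, n = 7 and 6), and was higher in 129S1/SvImJ on high-fat diet by 1.01 (edgeR adjusted p = 7.1e-07). Between strains 2 of the 10 were higher and 1 lower in 129S1/SvImJ on high-fat diet, and 2 higher and 2 lower on chow.

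Of 18 genes of VLDL assembly, 2 were called for diet in 129S1/SvImJ, both higher (the coat genes Sec23a, 0.21, and Sec24a, 0.27). One, Cideb, rose in C57BL/6J (0.16). Between strains P4hb, the partner subunit of the transfer protein, was lower in 129S1/SvImJ on high-fat diet (-0.21, edgeR adjusted p = 0.0226). On chow the cargo receptor gene Lman1 was lower (-0.42) and Cideb higher (0.16) in 129S1/SvImJ. Apob itself was called in no comparison, with log2 fold changes of 0.09 and -0.15 for diet in 129S1/SvImJ and in C57BL/6J. Of 18 genes of transcriptional regulators described for the members, 2 rose and 1 fell with diet in 129S1/SvImJ and 3 rose and 3 fell in C57BL/6J. Srebf1 and Foxo1 rose and Srebf2 fell in both strains (Srebf2 by -1.39 in 129S1/SvImJ and -0.81 in C57BL/6J). Between strains 1 was higher and 3 lower in 129S1/SvImJ on high-fat diet, and 2 higher and 1 lower on chow, Pparg being lower on both (-2.76 on high-fat diet, -1.65 on chow).

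**Figure D5:**
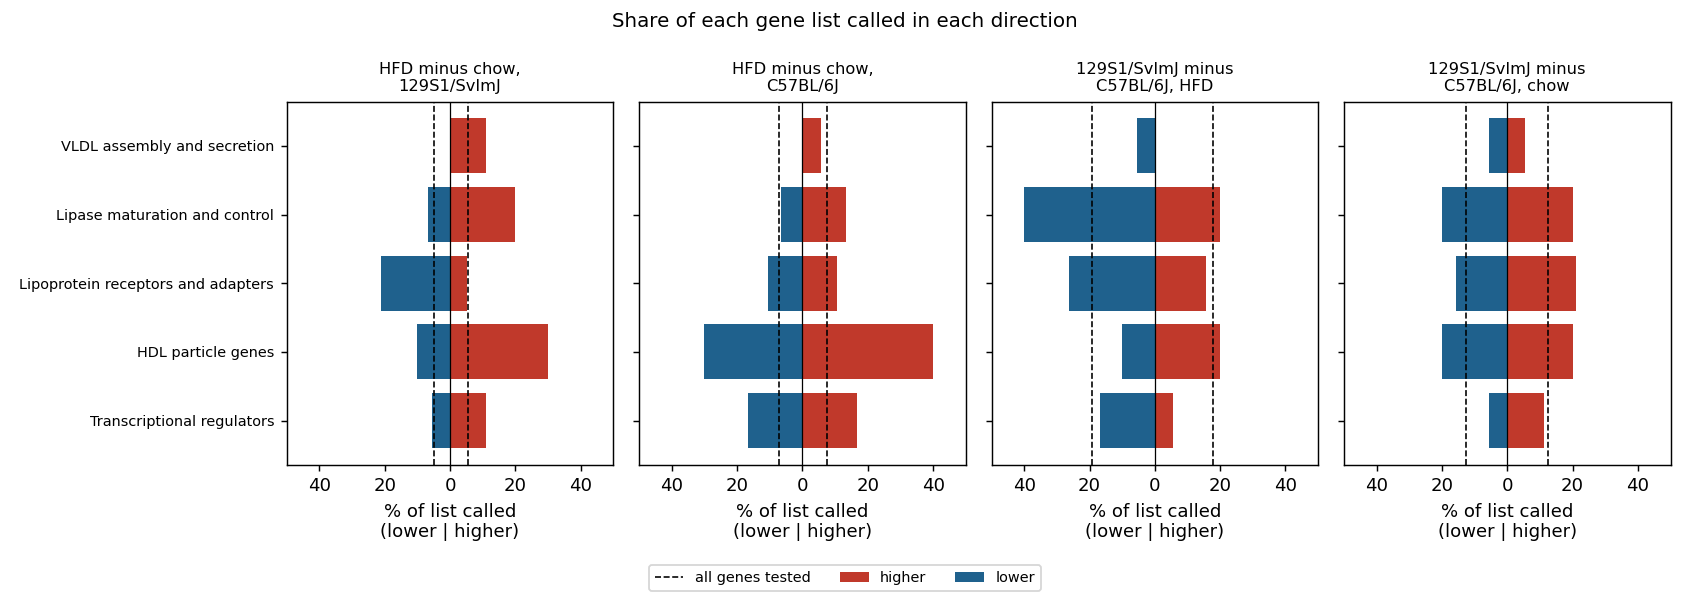
Percent of each of the 5 gene lists called higher (red, to the right) and lower (blue, to the left) in 4 comparisons, with the percent of all genes tested as dashed lines. The lists hold 10 to 20 genes, so a bar can rest on 1 or 2 genes; in the HDL list 7 of 10 genes were called for diet in C57BL/6J, 4 higher and 3 lower.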

How the data were processed

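Liver RNA was depleted of ribosomal RNA and made into directional libraries, per the labels' protocols. Raw gene counts per library were deposited by the authors, and the per-library tables equalled the columns of the deposited count matrix in all 24 libraries. The authors also deposited a matrix of variance-stabilized log2 values, used here for 1 alternative. The submitters' processing notes name the build mm10, the aligner STAR 2.5.4b, DESeq2 1.26.0, the trimmer Trimmomatic 0.36 and Bowtie2 2.2.3, and the counter's strand setting is not given in the sources used here. Of 53677 identifiers, 53582 matched GENCODE M21 (mm10). Whether sequence differences between the strains affected alignment and counts was not tested.

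Counts of all 24 libraries were fitted with edgeR 4.0.16 (R 4.3.3; quasi-likelihood test, robust dispersion, TMM scaling, its default filter on low counts, 1 mean per group), with Benjamini-Hochberg adjustment over 14533 genes, a threshold of 0.05 and a prior count of 0.125. All adjusted p-values are from that test unless another tool is named; the procedure was first tested on simulated data. Replicates are mice of 1 group. In all 61 pairs of libraries within groups the counts differed beyond sampling noise (lowest chi-square per degree of freedom 5.3). Alternatives were DESeq2 1.42.0, limma 3.58.1 (voom, and on the variance-stabilized values), other scalings and filters, a replicate block, 7SK RNA level, each library left out and, chosen after seeing the data, a limma-voom fit with the numbers shared among mouse IDs as a random block. Named were all members and, from each list in each comparison, the called genes of smallest p (at most 3 each way), plus Lpl, Gpihbp1, Apob and Vldlr whatever their p. Some genes of these lists are counted but not reported by name here, and those named are not given in every comparison. The members and lists were chosen with earlier results of these data known.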

Additional observations from a re-analysis of the deposited data

Results flagged for a closer look

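Among 36 sets of 5 to 7 livers (each of the 9 genes in each of the 4 groups), 3 held a liver far from the rest of its group by Dixon's test at the 95% level, which chance alone gives in about 1 of 20 sets. Replicate 1 of C57BL/6J on high-fat diet had 47.17 CPM of Angptl8, where the others had 6.88 to 22.4 CPM. Replicate 5 of C57BL/6J on high-fat diet had 133.6 CPM of Pltp, where the others had 28.9 to 65.6 CPM. It is the library with 6.07 CPM of Adipoq, Lep and Plin1 in sum. Replicate 4 of 129S1/SvImJ on chow had 2471 CPM of Lrp1, where the others had 2956 to 3090 CPM.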

How the results depend on the processing

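All 12 called changes kept their direction under the 15 alternatives and the 24 fits that each left out 1 library. Of the single-gene results so recomputed, 1699 stayed on their side of the threshold, 26 gained and 21 lost a call. For diet in 129S1/SvImJ, 3 members were called, against 0 within the low and 1 within the high 7SK level. For diet in C57BL/6J, 0 were called, against 1 with library totals and 2 without libraries with fat-cell transcripts, and 0 to 2 when 1 library was left out (2 without high-fat replicate 5). For strain on high-fat diet, 6 were called, against 1 within the low 7SK level. For strain on chow, 3 were called, against 5 with only the 2 groups compared (Mttp and Lcat added), 0 within the high 7SK level, and 3 to 5 when 1 library was left out. The cause was not tested, except that the 7SK levels and single omissions leave fewer livers.

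With the replicate number as a block, 3, 0, 6, 4 and 0 members were called for diet in 129S1/SvImJ, diet in C57BL/6J, strain on high-fat diet, strain on chow and the interaction (Lcat added on chow). The labels do not say that a replicate number pairs mice of different groups, so the numbers were not taken as pairs. Deviations of same-numbered mice correlated at -0.22 to 0.314, and for strain on chow 4 of 5 were above 0.1. In each comparison 1 or 2 mice correlated best with their own number. In a limma-voom fit chosen after seeing the data, with the 8 numbers shared among mouse IDs as a random block (consensus correlation -0.00149), 2, 0, 5, 4 and 0 members were called. Both calls of Angptl8 were lost, as with limma-voom alone, and Mttp was called on chow (adjusted p = 0.0495).

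Over all genes, diet calls in 129S1/SvImJ numbered 1514, against 937 without chow replicate 1 and 305 (low 7SK level) and 283 (high level). In C57BL/6J they numbered 2159, against 312 and 784. Strain calls numbered 5375 on high-fat diet, against 1549 within the low level, and 3636 on chow, against 2008 and 1338. Interaction calls numbered 43, against 297 with DESeq2, 21 with limma-voom, 75 with library totals, 17 with the replicate block, 2 without fat-cell libraries, 1 and 0 within 7SK levels, and 5 to 170 with 1 library left out. With library totals the share of calls that were higher was 40.4% (51.9% with TMM) for diet in 129S1/SvImJ, 68.7% (51.6%) in C57BL/6J and 22.7% (58.1%) for the interaction, and with upper-quartile scaling 44.7% for the interaction. Pathway list counts moved by over 1.5 times in 17 cases, mostly the VLDL list. Ranks of level differed for 8 of 9 members when CPM was not divided by length.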
